A study of Rattus norvegicus with 12 samples.

Results

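Complement is the cascade of plasma proteins that tags microbes and damaged cells, calls in leukocytes and punctures membranes. Its classical route starts when C1q binds antibody or other ligands, its lectin route when mannose-binding lectins bind sugars, and its alternative route runs as an amplification loop on C3, after which all routes meet in C5 and the membrane attack complex. Hepatocytes make most of the circulating components, whereas C1q and properdin come mainly from macrophages and other myeloid cells. Several of the hepatocyte genes are induced in the acute phase response, the change in liver output that follows inflammatory cytokines.

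The gene set described here is that of complement components and regulators: 34 gene symbols listed by name, with earlier results of these data known. Of these, 30 had a row among the 16478 genes of the count tables and 28 passed the filter on low counts, of 9943 genes tested. C4a, C5, C7 and C5ar1 had no row under those symbols and were not analysed here. C4b was listed at 0 in all 12 libraries. Cd55 had at most 5 counts in any library and was not tested.

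The samples were livers of obese rats of the ZSF1 strain, 6 of them female and 6 male, all adult, untreated and 16 weeks old, with 1 library per animal. ZSF1 is a hybrid rat strain whose obese animals carry a defective leptin receptor gene from each parent, so the animals of both sexes share obesity and the loss of leptin signalling, and no lean animals were part of the comparison. The comparison asks how transcript levels in the liver of this strain differ between females and males. Levels are in CPM, the count of a gene scaled to a common library size, here with TMM factors that correct for composition. A positive log2 fold change means a higher level in females.

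Libraries held 6763879 to 24837602 counts over genes in females and 11381428 to 29232871 in males, so that 3 counts correspond to between 0.105 and 0.416 CPM. The liver label fits the albumin gene Alb, which took 17.8% to 23.1% of the counts in females and 11.6% to 17.8% in males. Male 4 stood apart before any comparison: its log2 profile lay 0.539 from the median of its sex (root mean square over genes), against at most 0.296 for the other males and 0.382 for a female. The summed level of 13 acute phase genes was 84957 CPM in male 4, 34638 to 40373 CPM in the other males and 27733 to 35414 CPM in females. Neutrophil marker rows, 7 in number, summed to 25.1 CPM in male 4 and to at most 3.06 CPM in any other animal. Most of the sum in male 4 came from S100a9, at 14.1 CPM, and S100a8, at 8.95 CPM. Each other row of that list was at or below 0.768 CPM in male 4. Their part in the results was not tested, and the fits without male 4 are given beside the members described.

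Complement members did not move as a block between the sexes. With an adjusted p under 0.05 in edgeR's quasi-likelihood test, 4 of 28 members were higher in females (14.3%, where 20.5% of all genes tested were) and 8 were higher in males (28.6%, where 22.7% of all genes were). The share called in either direction was 42.9%, against 43.2% of all genes, so the set is near the background. One of the 8 is Cd46, which has few counts and passed the filter through the males, so it had to differ to be tested and lends the count no support. Without it, 7 members were higher in males, the count also found with genes filtered on a mean of 1 CPM. The median log2 fold change was -0.15 over the members and -0.01 over all genes tested. Without male 4, 9 members were higher in females and 9 higher in males, 64.3% in all (of all genes, 24% and 22.4%, or 46.4% in all), and the median over the members was -0.03. The 12 members called with all animals were all called again in that fit, and C1qa, C1qb, C1qc, Cfp, C9 and Cfi were added.

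By route, the counts are small and differences between routes were not tested. For scale, the test called 20.5% of all genes toward females and 22.7% toward males, and 24% and 22.4% without male 4. The classical route gave 0 of 6 tested members higher in females and 2 higher in males, and 3 and 2 without male 4, with its median log2 fold change moving to 0.28 without male 4, against -0.04 with all animals. The lectin route gave 1 of 4 higher in females and 2 higher in males in both fits. The alternative route gave 1 of 4 higher in females (2 without male 4) and 0 higher in males. The terminal route gave 2 of 5 higher in females and 0 higher in males (1 without male 4). Regulators gave 0 of 8 higher in females (1 without male 4) and 4 higher in males, Cd46 among them. By usual cell of origin, the 20 tested hepatocyte-made members gave 3 higher in females and 7 higher in males with a median log2 fold change of -0.20. The 5 tested macrophage-made members had positive fold changes throughout, with a median of 0.44, and 0 were called, a count that became 4 without male 4. In whole liver, fewer cells of a type and less RNA per cell cannot be told apart.

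**Figure D1:**
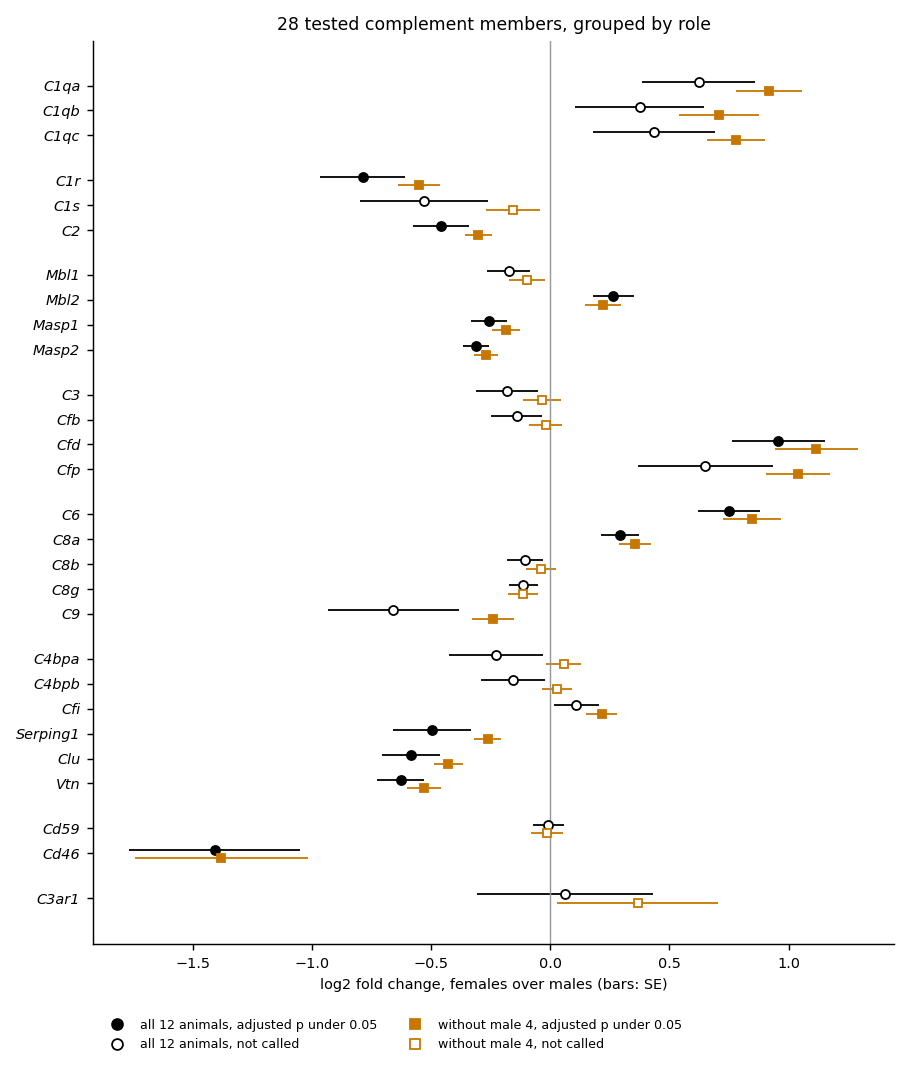
Log2 fold change of females over males (horizontal axis, bars are SE) for the 28 tested complement members, grouped by role down the page. Circles are fits on all 12 animals and squares are fits without male 4, and filled symbols have an adjusted p under 0.05. C1q chains and Cfp lie right of 0 and are filled only without male 4, while C1r, C2, Serping1, Clu and Vtn lie left of 0 and are filled in both.

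Promoters are shown for 4 members on which the results below turn, chosen after their values were seen: C6, with the largest fold change toward females among hepatocyte-made members, C8a and C8b, whose products join in the same complex but whose transcripts differed in their pattern, and Vtn, with the lowest adjusted p of the members higher in males. Each is the 250 bases before the annotated start, from RefSeq on assembly GRCr8, in the gene's 5′ to 3′ direction. The counts themselves were made on rn4, and no coordinates were converted. Capitals mark matches on either strand to TTCNNNGAA (a STAT pattern), TTGCNNAA (a C/EBP pattern) or GTTAAT (only part of an HNF1 pattern). C6 lies at chr2:55573383-55573632 on the plus strand, C8a at chr5:124866632-124866881 on the minus strand, C8b at chr5:124763864-124764113 on the plus strand, and Vtn at chr10:63892532-63892781 on the plus strand.
C6: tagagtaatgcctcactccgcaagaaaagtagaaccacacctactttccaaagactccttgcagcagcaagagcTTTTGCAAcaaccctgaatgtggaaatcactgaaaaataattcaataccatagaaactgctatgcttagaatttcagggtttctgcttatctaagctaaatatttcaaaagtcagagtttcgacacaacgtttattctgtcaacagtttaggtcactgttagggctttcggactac
C8a: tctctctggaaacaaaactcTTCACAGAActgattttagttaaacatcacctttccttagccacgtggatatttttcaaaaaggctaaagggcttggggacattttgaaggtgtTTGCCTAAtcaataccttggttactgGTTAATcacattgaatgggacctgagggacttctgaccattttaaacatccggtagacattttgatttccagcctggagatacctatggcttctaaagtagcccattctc
C8b: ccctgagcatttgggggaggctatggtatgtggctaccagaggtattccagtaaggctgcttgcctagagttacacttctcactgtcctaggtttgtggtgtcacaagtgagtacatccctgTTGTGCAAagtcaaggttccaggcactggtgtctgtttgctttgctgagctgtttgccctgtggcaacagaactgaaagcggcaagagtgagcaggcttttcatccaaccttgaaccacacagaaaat
Vtn: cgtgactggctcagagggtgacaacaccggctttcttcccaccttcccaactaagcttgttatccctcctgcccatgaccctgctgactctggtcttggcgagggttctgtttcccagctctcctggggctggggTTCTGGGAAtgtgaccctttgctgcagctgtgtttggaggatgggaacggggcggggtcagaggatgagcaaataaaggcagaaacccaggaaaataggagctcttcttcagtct
The C/EBP pattern began 176 bases before the start in C6, 136 bases before it in C8a and 128 bases before it in C8b. The STAT pattern began 230 bases before the start in C8a and 115 bases before it in Vtn, and the partial HNF1 pattern 110 bases before it in C8a. Promoters were found for 20 of the 30 members with a row. Over windows of 300 bases, which add the first 50 bases after the start, the C/EBP pattern was in 6 of these 20 (10.6% of 33469 promoters of all genes). The STAT pattern was in 4 (8.9% of all) and the partial HNF1 pattern in 4 (7.5% of all). The C/EBP pattern was in 1 of the 4 promoters found for members called higher in males. It was in 2 of the 4 found for members called higher in females. No difference in these shares was tested. None of the matches shown overlap each other. A match is a string of letters and not a measured binding site.

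C1q, the recognition molecule of the classical route, is built from 3 chains encoded by C1qa, C1qb and C1qc. C1qa stood at 34.9, 40.1 and 46.5 CPM in females (lowest, median, highest), against 16.9, 20.7 and 49.5 CPM in males. The highest male was male 4, and the other 5 males, up to 31.0 CPM, lay below every female. The difference was 1.54-fold with all animals (log2 0.62, SE 0.238, adjusted p = 0.0517) and 1.89-fold without male 4 (adjusted p = 0.000143). With all animals it passed the test in DESeq2 (adjusted p = 0.0147) and limma-voom (adjusted p = 0.0109). C1qb stood at 20.6, 30.3 and 36.7 CPM in females, against 14.2, 19.5 and 46.1 CPM in males. It was not called with all animals (log2 0.37, adjusted p = 0.289) and was 1.63-fold higher in females without male 4 (adjusted p = 0.00426), where the sexes still overlapped. C1qc, at 29.2 to 40.9 CPM in females and 17.3 to 52.9 CPM in males, gave a log2 fold change of 0.44 (adjusted p = 0.19) and 0.78 without male 4 (adjusted p = 0.000164).

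The summed macrophage markers moved with the summed C1q chains from animal to animal, though not every single marker did. Slc40a1 was at 122.9 CPM in male 4 and at least 145.6 CPM in females. Mrc1 was at 28.8 CPM in male 4 and at least 33.7 CPM in females. The summed level of 13 marker rows was 388 to 553 CPM in females, 631 CPM in male 4 and 237 to 336 CPM in the other males, and 1 of the rows, Lyz2, was at 0 throughout. The 3 C1q chains together summed to 86.3 to 122 CPM in females, 149 CPM in male 4 and 48.4 to 84.4 CPM in the other males. Per unit of summed marker RNA, the C1q sum was 0.199 to 0.233 in females and 0.197 to 0.251 in males. These ranges overlapped almost wholly, with male 4 at 0.235. Over Clec4f alone, the C1q sum was 1.15 to 1.49 in females (median 1.37) and 1.44 to 1.97 in males (median 1.52), with male 4 highest. Those ranges overlapped much less, so the comparison depends on the marker used. Of 12 tested macrophage markers, 5 passed the test toward females and 1 toward males, and these counts were 10 and 0 without male 4 (of all genes, 20.5% and 22.7% with all animals, and 24% and 22.4% without male 4). Among them, Clec4f, a lectin of Kupffer cells, stood at 57.8 to 86.0 CPM in females and 30.9 to 75.3 CPM in males (1.69-fold higher in females, adjusted p = 0.00983, and 1.95-fold without male 4), and Slc40a1, the iron exporter of macrophages and other cells, did not overlap between the sexes (1.96-fold, adjusted p = 3.00e-05, and 2.13-fold without male 4). Csf1r, the receptor for the macrophage growth factor CSF1, was at 20.2 to 29.5 CPM in females, 72.9 CPM in male 4 and 13.01 to 22.7 CPM in the other males. It was not called with all animals (log2 0.04, adjusted p = 0.955). The marker called toward males was Cd14 (log2 -0.16, adjusted p = 0.0457, and log2 -0.14, adjusted p = 0.0901, without male 4). Marco (log2 -0.28) and Cd5l (log2 -0.23) were not called with all animals, and their log2 fold changes were 0.33 and 0.52 without male 4.

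**Figure D2:**
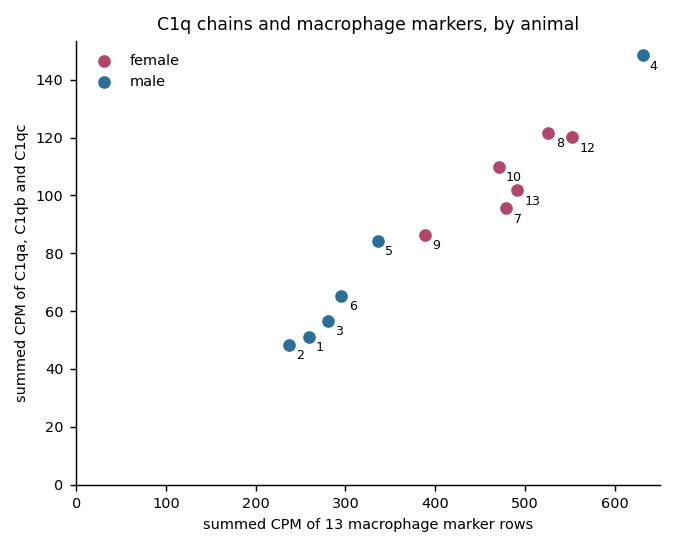
Summed CPM of C1qa, C1qb and C1qc (vertical axis) against the summed CPM of 13 macrophage marker rows (horizontal axis), 1 point per animal, numbered by animal. The 5 males other than male 4 sit at 48.4 to 84.4 CPM of C1q, the 6 females at 86.3 to 122 CPM, and male 4 at 149 CPM, along a common line.

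C1r and C1s are the proteases that C1q activates, and C1s cleaves C4 and C2. C1r stood at 248.6, 297 and 345 CPM in females, against 401, 442 and 883 CPM in males. Every male lay above every female, also with male 4 set aside. C1r was thus 1.72-fold higher in males (log2 -0.79, SE 0.179, adjusted p = 0.00309) and 1.47-fold higher without male 4 (adjusted p = 0.000147). C1s, its substrate and partner, lay at 202 to 293 CPM in females, 777 CPM in male 4 and 222 to 334 CPM in the other males. It was not called in either fit (log2 -0.53, adjusted p = 0.131, and log2 -0.16, adjusted p = 0.278, without male 4). Counts of C1s over counts of C1r were 0.731 to 0.899 in females, 0.554 to 0.726 in males other than male 4, and 0.881 in male 4.

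C2 supplies the catalytic part of the classical and lectin C3 convertase. Its level was 126, 141 and 149.7 CPM in females and 164, 177 and 284 CPM in males. The sexes did not overlap, and male 4 lay far above the other males, whose highest value was 179.6 CPM. C2 was 1.37-fold higher in males (adjusted p = 0.00623) and 1.23-fold higher without male 4 (adjusted p = 0.000588). C4 has a pair of near-identical gene copies in rat. The row named C4b held 0 counts, which allows up to 3 counts per library, while a row named C4-2 held reads. In the RefSeq table C4-2 is an older name of C4b, and C4b in turn stands among the older names of C4a. Which copy the empty row named is therefore uncertain. How reads were divided between the copies, or set aside as not uniquely aligned, is uncertain too. C4-2 lay at 216 to 300.4 CPM in females and 167 to 381 CPM in males, with male 4 highest. It was not called with all animals (log2 0.14, adjusted p = 0.542) and was 1.26-fold higher in females without male 4 (adjusted p = 0.0153).

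Within the lectin route, Mbl2 was higher in females and both proteases were higher in males. Mbl1 and Mbl2 encode the mannose-binding lectins A and C of rodents. Mbl2 was at 137, 169 and 187 CPM in females, against 112, 138 and 162 CPM in males. Male 4 was the lowest of all animals here. The sexes overlapped, since females 8 and 12 lay below male 5, the highest male. Mbl2 was 1.20-fold higher in females (log2 0.27, SE 0.0872, adjusted p = 0.0232), a call kept without male 4 (log2 0.22, adjusted p = 0.0276) and lost without female 7 (log2 0.23, adjusted p = 0.0571). Mbl1, at 232 to 289.6 CPM in females and 234 to 349.6 CPM in males, was not called (log2 -0.17, adjusted p = 0.131, and log2 -0.10, adjusted p = 0.317, without male 4). Mbl2 and Mbl1 are related genes, and their sequence identity was not measured here.

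Masp2, the lectin-route protease that cleaves C4 and C2, stood at 208, 216 and 224 CPM in females and 251, 265 and 298 CPM in males. The ranges were narrow and did not overlap. The difference was 1.24-fold toward males (log2 -0.31, SE 0.0553, adjusted p = 0.000427) and 1.21-fold without male 4. Masp1, which activates Masp2, gave 149 to 174 CPM in females and 174 to 234 CPM in males (1.20-fold higher in males, adjusted p = 0.0115, and 1.14-fold, adjusted p = 0.0179, without male 4). Female 7, at 174.5 CPM, was level with male 6, at 174.4 CPM, so the sexes touched.

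C3, on which all routes converge, was at 8883, 10322 and 11490 CPM in females and 10006, 10719 and 17071 CPM in males. It took 0.948% to 1.12% of the counts in females and 0.998% to 1.65% in males. Apart from male 4 the males stayed within 10006 to 11712 CPM and overlapped the females. C3 was not called (log2 -0.18, SE 0.130, adjusted p = 0.276, and log2 -0.03, adjusted p = 0.755, without male 4). Cfb, factor B, the catalytic subunit of the alternative convertase, behaved likewise, with 1579 to 1937 CPM in females and 1740 to 2706 CPM in males (log2 -0.14, adjusted p = 0.317, and log2 -0.02, adjusted p = 0.849, without male 4).

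Cfd, factor D or adipsin, the protease that cleaves factor B, had 3.88, 6.33 and 7.82 CPM in females, against 2.21, 2.94 and 4.72 CPM in males. Female 9 was the lowest female and lay below males 4 and 5. Cfd was 1.94-fold higher in females (log2 0.96, SE 0.196, adjusted p = 0.00125) and 2.17-fold higher without male 4 (adjusted p = 0.000116). It had 28 to 146 counts a library in females and 30 to 93 in males. Adipocytes are its best-known source. Of the adipocyte rows, Lep was at 0 throughout and Adipoq had 3 counts over all females and 1 over all males, while Cidec, which fatty hepatocytes also express, was at 87.1 to 95.3 CPM in females and 104 to 125 CPM in males.

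Cfp, properdin, the stabilizer of the alternative convertase, had 22.7, 32.3 and 34.2 CPM in females and 12.5, 14.997 and 42.0 CPM in males. Male 4 exceeded all females, and the other males, up to 20.6 CPM, lay below all females. Cfp was not called with all animals (log2 0.65, adjusted p = 0.0812) and was 2.06-fold higher in females without male 4 (adjusted p = 3.92e-05). With all animals it passed the test in DESeq2 (adjusted p = 0.0299) and limma-voom (adjusted p = 0.013). Per unit of macrophage marker RNA, Cfp was 0.0585 to 0.0694 in females and 0.0471 to 0.0665 in males, ranges that overlapped.

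**Figure D3:**
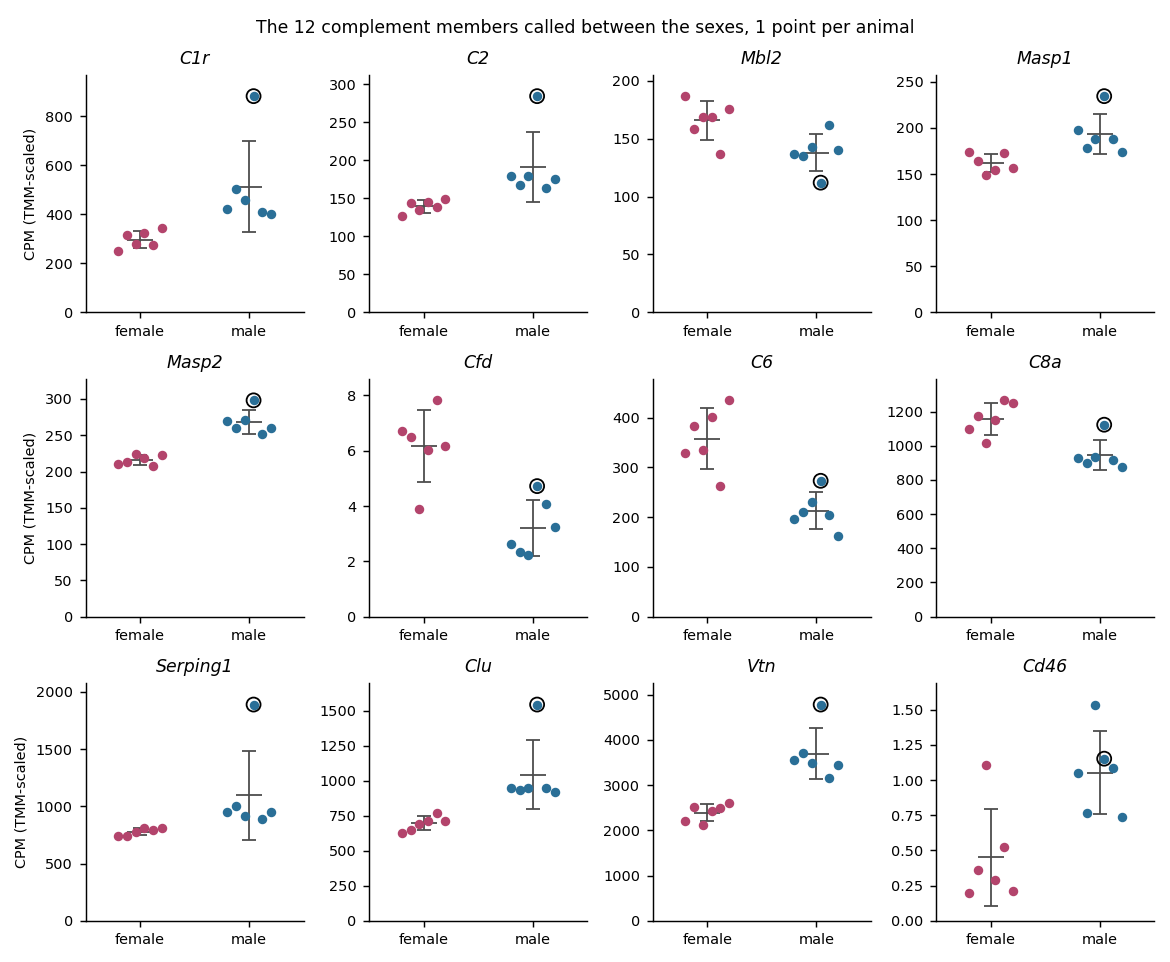
CPM of the 12 members with an adjusted p under 0.05 (vertical axes from 0), 1 point per animal, females left and males right, with mean and SD over 6 animals as bars and male 4 ringed. C1r, C2, Masp2, Serping1, Clu and Vtn show no overlap between the sexes, with all males above, and male 4 is the highest male in 10 of the 12 panels, the exceptions being Mbl2 and Cd46.

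Terminal components assemble as C6, C7, C8 and C9 on C5b to form the membrane attack complex. C6 showed the largest difference among them. It stood at 263, 359 and 435 CPM in females, against 162, 207 and 273 CPM in males. The lowest female, female 12, and the highest male, male 4, were the only animals whose values crossed. C6 was 1.68-fold higher in females (log2 0.75, SE 0.130, adjusted p = 0.000383) and 1.80-fold higher without male 4.

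C8 consists of an alpha, a beta and a gamma chain, encoded by C8a, C8b and C8g. C8a was at 1016, 1162 and 1266 CPM in females, against 873, 923 and 1124 CPM in males. Male 4 alone among males reached into the female range, since the others stayed at or below 934 CPM. C8a was 1.22-fold higher in females (log2 0.29, SE 0.0799, adjusted p = 0.0084) and 1.28-fold higher without male 4 (adjusted p = 0.000556). C8b, at 472 to 565 CPM in females and 521 to 671 CPM in males, was not called (log2 -0.11, adjusted p = 0.279, and log2 -0.04, adjusted p = 0.639, without male 4), nor was C8g, at 343 to 405 CPM in females and 368 to 419 CPM in males (log2 -0.11, adjusted p = 0.158, and log2 -0.11, adjusted p = 0.156, without male 4). Within each animal, counts of C8a over counts of C8b were 2.04 to 2.46 in females and 1.61 to 1.75 in males, without overlap, and male 4 was at 1.68. Counts of C8g over counts of C8b overlapped, at 0.633 to 0.727 in females and 0.564 to 0.791 in males. The height of such a ratio also depends on transcript lengths, so only its difference between animals is described.

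C9, the chain that polymerizes into the pore, was at 926, 1045 and 1179 CPM in females and 1121, 1240 and 3716 CPM in males. The highest value was male 4, at 3.14 times the median of the other males, and the other males ran up to 1533 CPM and overlapped the females. C9 was not called with all animals (log2 -0.66, SE 0.275, adjusted p = 0.0714) and was 1.18-fold higher in males without male 4 (adjusted p = 0.0344). C6 and C9 thus had fold changes of opposite sign: counts of C6 over counts of C9 were 0.254 to 0.373 in females and 0.0734 to 0.181 in males, with male 4 lowest and no overlap.

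**Figure D4:**
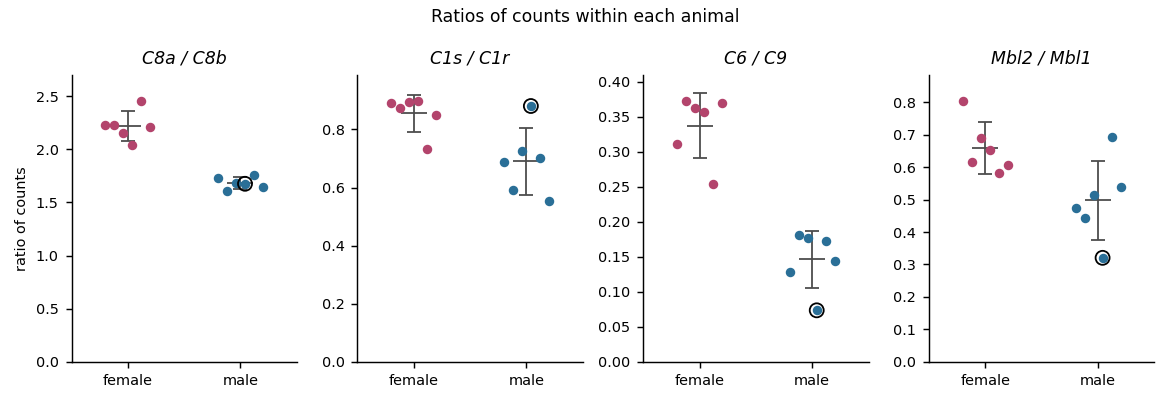
Ratios of counts within each animal (vertical axes from 0) for C8a over C8b, C1s over C1r, C6 over C9 and Mbl2 over Mbl1, females left and males right, with mean and SD over 6 animals as bars and male 4 ringed. C8a over C8b and C6 over C9 do not overlap between the sexes, at 2.04 to 2.46 and 0.254 to 0.373 in females against 1.61 to 1.75 and 0.0734 to 0.181 in males.

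Soluble regulators gave 3 of 6 members higher in males, where 22.7% of all genes tested were. Vtn, vitronectin, an adhesion protein that keeps terminal complexes from inserting into membranes, stood at 2109, 2456 and 2599 CPM in females and 3155, 3524 and 4780 CPM in males. All males lay above all females. Vtn was 1.55-fold higher in males (log2 -0.63, SE 0.100, adjusted p = 0.000179) and 1.44-fold higher without male 4. Clu, clusterin, a chaperone that also binds terminal complexes, was at 630.2, 702 and 772 CPM in females and 920.5, 949.9 and 1545 CPM in males. The 5 males other than male 4 lay within 920.5 to 952 CPM. Clu was 1.498-fold higher in males (adjusted p = 0.00142) and 1.34-fold higher without male 4 (adjusted p = 6.25e-05).

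Serping1 encodes the C1 inhibitor, which inactivates C1r, C1s and the MASP proteases as well as plasma kallikrein. It had 741, 782 and 813 CPM in females, against 886, 949.5 and 1888 CPM in males. Again the sexes did not overlap and male 4 stood alone, the next male being at 999 CPM. Serping1 was 1.41-fold higher in males (log2 -0.50, SE 0.163, adjusted p = 0.0234) and 1.20-fold higher without male 4 (adjusted p = 0.00189). The members without overlap were therefore C1r, C2, Masp2, Serping1, Clu and Vtn, 6 of 28 and all of them higher in males (21.4%, where 12.8% of all genes tested lay without overlap in that direction, 10.1% with all females above and 22.8% in either).

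The remaining soluble regulators were not called with all animals. C4bpa and C4bpb encode the chains of C4b-binding protein, a cofactor in the breakdown of C4b. C4bpa was at 670.1 to 808 CPM in females, 1657 CPM in male 4 and 683 to 816 CPM in the other males (log2 -0.23, adjusted p = 0.376), and its fold change was 0.06 on the log2 scale without male 4. C4bpb, at 413 to 473 CPM in females and 397 to 752 CPM in males, had a log2 fold change of -0.15 (adjusted p = 0.379) and of 0.03 without male 4 (adjusted p = 0.729). Cfi, factor I, the protease that degrades C3b and C4b, was at 801 to 922 CPM in females and 701 to 1069 CPM in males (log2 0.11, adjusted p = 0.38). Without male 4, Cfi was 1.16-fold higher in females (adjusted p = 0.0124).

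Membrane regulators protect host cells. Cd59, which blocks C9 polymerization, was at 83.2, 85.2 and 92.0 CPM in females and 78.5, 85.7 and 100.1 CPM in males, and was not called (log2 -0.01, SE 0.0651, adjusted p = 0.93, and log2 -0.01 without male 4). Its sign turned with the scaling, from -0.01 to 0.02. Cd46, a cofactor for factor I that in mouse is found mainly in testis, had 2 to 8 counts a library in females and 12 to 25 in males. Its level was 0.198 to 1.11 CPM in females and 0.735 to 1.54 CPM in males, and female 9 lay within the male range. Cd46 was called higher in males (log2 -1.41, SE 0.358, adjusted p = 0.00551, and log2 -1.38 without male 4), and the ratio of summed counts of males over females was 2.74, with an exact 95% counting interval of 1.86 to 4.14. It passed the filter through the males, of which 6 reached the filter's level of CPM, as 1 female did, so a difference was a condition of its being tested. Cd55, which dissociates convertases, had 15 counts over all females and 7 over all males. The receptor for C3a, C3ar1, had 3 to 23 counts a library and was at 0.416 to 0.903 CPM in females and 0.164 to 1.26 CPM in males (log2 0.06, adjusted p = 0.911, and log2 0.37, adjusted p = 0.396, without male 4).

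Male 4 was the highest male for 24 of the 28 members with at least 10 counts in some library, and the highest of all 12 animals for 21. The share of all genes highest in male 4 was not computed. Its profile over the tested genes also stood apart, at a root mean square log2 distance of 0.539 from the median of its sex. These counts are therefore not shown to be particular to complement. Relative to the median of the other 5 males, its levels were 3.18-fold for Cfp, 3.14-fold for C9, 2.72-fold for C1qc, 2.67-fold for C1s, 2.36-fold for C4bpa, 2.08-fold for C1r and 1.99-fold for Serping1. C3 was 1.68-fold and Cfb 1.498-fold that median. The lectin-route genes lay closer to that median, at 1.26-fold for Mbl1, 1.25-fold for Masp1 and 1.15-fold for Masp2, and Mbl2 was 0.799-fold, the only member below all other males. C8g and Cd59, each at 0.946-fold, and Cd46, at 1.099-fold, lay within the range of the other males. Members made up 3.96% of all counts in male 4, 2.36% to 2.60% in the other males and 2.21% to 2.41% in females. These values describe a single animal and carry no test.

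**Figure D5:**
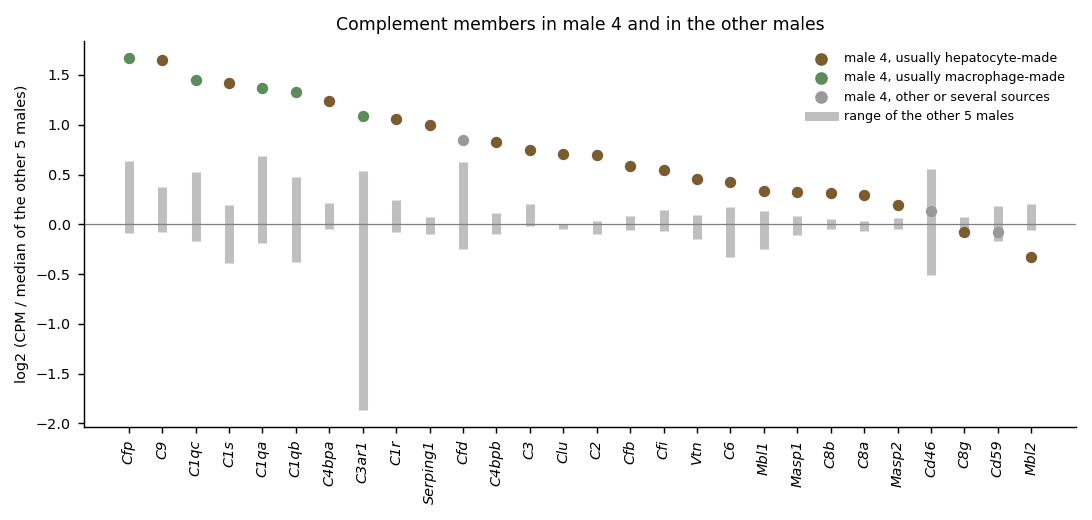
Level of each member in male 4 as log2 of its CPM over the median of the other 5 males (vertical axis), members ordered along the horizontal axis by that value and coloured by usual source, with grey bars for the range of the other 5 males. Macrophage-made C1q chains and Cfp and hepatocyte-made C9, C1s and C4bpa lie highest, at 2.36-fold to 3.18-fold, and Mbl2 lies below the bar at 0.799-fold.

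Beyond the members, a list of 35 further genes of complement and its control held 25 with a row and 21 tested. Of these, 2 were higher in females and 6 in males (20.5% and 22.7% of all genes tested were), and 6 and 5 without male 4 (24% and 22.4% of all genes). Cd93, a membrane protein of endothelial and myeloid cells once described as a C1q receptor, was at 7.76, 10.6 and 12.6 CPM in females, against 2.10, 3.48 and 7.02 CPM in males (2.66-fold higher in females, adjusted p = 0.000813, and 3.23-fold without male 4). No male reached the lowest female. Colec10, a collectin of the lectin route, was 1.24-fold higher in females (adjusted p = 0.0084) and 1.30-fold without male 4. Sinusoidal endothelial markers gave 4 of 5 tested rows higher in females, where 20.5% of all genes were, and summed to 83.8 to 108 CPM in females and 31.8 to 82.3 CPM in males, and their part in the Cd93 result was not tested.

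Toward males, Cr1l, the rodent membrane regulator Crry, stood at 28.8, 33.1 and 34.9 CPM in females and 45.0, 48.2 and 52.2 CPM in males. The sexes were well apart, also with male 4, the highest male, set aside, since the other males lay at 45.0 to 51.8 CPM. Cr1l was 1.49-fold higher in males (adjusted p = 5.98e-06) and 1.46-fold without male 4. Cpb2, a plasma carboxypeptidase that inactivates C3a and C5a, was 1.31-fold higher in males (513 to 589.6 CPM in females, 677 to 866 CPM in males, adjusted p = 0.000622, and 1.25-fold without male 4), and C1rl, a relative of C1r, 1.25-fold (adjusted p = 0.00622, and 1.17-fold without male 4). C1qbp, a mitochondrial protein that binds C1q, was 1.26-fold higher in males (adjusted p = 0.00203) and 1.24-fold without male 4. Fcnb, a ficolin of myeloid cells, was called higher in males with few counts (0.550 to 1.39 CPM in females, 1.01 to 3.90 CPM in males, adjusted p = 0.0458). The call was lost in 11 of the 21 other settings tried, among them limma-voom and the fit without male 4 (adjusted p = 0.107).

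The list also held cytokine receptor chains and transcription factors through which hepatocytes induce complement genes. Cebpb, which encodes C/EBP-beta, was at 43.9, 54.9 and 63.5 CPM in females, against 64.7, 78.6 and 117 CPM in males. All males lay above all females. Cebpb was 1.54-fold higher in males (log2 -0.62, adjusted p = 0.00137) and 1.40-fold without male 4. The interleukin-6 receptor gene Il6ra (log2 0.07, adjusted p = 0.476) and the transcription factor gene Stat3 (log2 0.23, adjusted p = 0.171) were not called. Measured beside them, 2 of 13 acute phase genes passed the test toward females and 6 toward males (20.5% and 22.7% of all genes did), and 2 and 5 without male 4 (24% and 22.4%). Their part in the complement results was not tested.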

How the data were processed

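The authors deposited whole-number read counts per gene symbol, with no normalization, 1 table per liver. Per the submitters' processing notes, the tools were Bowtie2 2.0.2 and DESeq, with rn4 as the rat genome build. The program, annotation and strand setting used to assign reads to genes are not given in the sources used here. Whether reads of overlapping and antisense genes were told apart is therefore not known. A further 5 rows that name no gene held 27.1% to 31.7% of the counts and were left out. They are named no_feature, ambiguous, too_low_aQual, not_aligned and alignment_not_unique. By these names, ambiguous reads and reads without a unique alignment were counted apart from the genes. Nothing in the labels gives a batch, litter or collection time, and males are numbered 1 to 6 and females from 7, so that anything following the animal numbers cannot be told apart from sex. All 30 pairs of libraries within a sex differed by more than sampling noise, the lowest chi-square being 6.02 per degree of freedom. The labels number the animals and say nothing more of their origin, so p-values measure the spread between these samples.

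The main test used edgeR 4.0.16 (R 4.3.3) on all genes: filterByExpr (minimum count 10, minimum total count 15), TMM factors, and the robust quasi-likelihood F test with sex as the only term and Benjamini-Hochberg adjustment. The SE of a log2 fold change is its size over the root of F. The procedure was tested on simulated data, where it called 67.2% of 1.5-fold changes and 92.5% of 2-fold changes, and 5% of calls were false. Far fewer genes were changed there than were called here. A member that was not called may still differ by a small fold. Counting intervals cover counting error only. Alternatives used DESeq2 1.42.0, limma 3.58.1, other scalings, other filters and left-out animals. Members, lists and ratios were chosen with earlier results of these data known, and the grouping by route, role and usual source is from general knowledge. The rule for describing genes took every member that was called, stood apart in 1 animal or had the highest CPM of the uncalled members of its role, a choice by counts that are not adjusted for length. Further genes named were chosen after their values were seen. Marker lists not described above gave, with all animals, for hepatocytes 2 of 10 tested higher in females and 4 in males, for stellate cells 1 and 1 of 7, for adipocytes 0 and 1 of 1, for neutrophils 0 and 1 of 1 and for lymphocytes 0 and 0 of 1. The neutrophil row tested was S100a9, for which 6 males but only 1 female reached the filter's level of CPM. Like Cd46, it passed the filter through the males. A difference was thus a condition of its being tested, and its call lends no support to a neutrophil difference. Protein sequences and gene lengths were not used here, so no result rests on comparing levels between genes.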

Additional observations from a re-analysis of the deposited data

Results flagged for a closer look

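Male 4 stood apart from the other 5 males by Dixon's test (the gap to the nearest male over the whole range, at the 95% critical value) for 17 members, and no other animal did for any member. In all, 55 groups of 6 were examined, and chance flags about 1 in 20 independent groups. All 17 flags fall on 1 animal and come from the same library, so that rate does not apply to their number. The share of all genes flagged in this way was not computed. Among classical components, male 4 held 46.1 CPM of C1qb (25.5 in the nearest male), 52.9 CPM of C1qc (27.9), 883 CPM of C1r (503), 777 CPM of C1s (334) and 284 CPM of C2 (179.6). At C3 and in the alternative route it held 17071 CPM of C3 (11712 in the nearest male), 2706 CPM of Cfb (1918) and 42.0 CPM of Cfp (20.6). Among terminal components it held 1124 CPM of C8a (934 in the nearest male), 671 CPM of C8b (561) and 3716 CPM of C9 (1533). Among regulators it held 1657 CPM of C4bpa (816 in the nearest male), 752 CPM of C4bpb (459), 1069 CPM of Cfi (810.1), 1888 CPM of Serping1 (999), 1545 CPM of Clu (952) and 4780 CPM of Vtn (3713). Beside these, the macrophage marker rows summed to 631 CPM in male 4 and at most 336 CPM in the other males, and the acute phase genes to 84957 and at most 40373 CPM. Their part in these values was not tested.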

How the results depend on the processing

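The counts of members called were recomputed under 21 settings. With 1 animal left out in turn, 3 to 9 members were higher in females, the 9 without male 4, and 8 to 9 in males. With male 4 and female 12 both left out there were 9 and 9, where 24.2% and 22.5% of all genes tested were called. Members higher in females were 6 with DESeq2 and with limma-voom, 5 under each of the 4 other scalings and 4 under both other filters, and members higher in males were 7 with genes filtered on a mean of 1 CPM and 8 in the others of these settings. Of the 12 called members, 11 kept their call and sign in every setting in which they were tested, the exception being Mbl2 without female 7, and 10 of 16 uncalled members were called in none. The count of macrophage-made members higher in females was 2 with the DESeq2 Wald test and with limma-voom, 1 with RLE size factors, upper quartile factors, library totals or scaling without the 20 most abundant genes (C1qa in each), 4 with male 4 and female 12 both left out, and 0 to 4 with 1 animal left out. Further complement genes higher in females were 2 to 6 with 1 animal left out and 6 with both left out. Signs turned for 4 uncalled genes. C4bpa and C4bpb had log2 fold changes of 0.046 and 0.038 with both animals left out, and ran from -0.29 to 0.056 and from -0.20 to 0.029 with 1 left out. Cd59 was at 0.00086 with RLE size factors, 0.019 with upper quartile factors, 0.016 with library totals, 0.0056 with scaling without the 20 most abundant genes, 0.0033 with genes filtered on a mean of 1 CPM and 0.0016 with both animals left out, and -0.038 to 0.034 with 1 left out. C3ar1 ran from -0.15 to 0.37 with 1 left out. The cause was not tested. The median over all genes stayed between -0.02 and 0.02 on the log2 scale. The counts by source and of further genes were added after seeing the data. Cd46, C3ar1, Fcnb and Cd55 are limited by depth, at most 25 counts a library for the first 2. No paired analysis was possible because females and males share no replicate number.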

Other observations

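Counts of C1qc over counts of C1qa were 0.802 to 0.946 in females and 0.900 to 1.07 in males, and counts of C1qb over counts of C1qa were 0.567 to 0.824 in females and 0.755 to 0.974 in males, so that both ratios overlapped between the sexes. Their medians were 0.875 in females and 1.02 in males for C1qc over C1qa, and 0.756 in females and 0.882 in males for C1qb over C1qa, with no test. Counts of C4bpa over counts of C4bpb were 1.62 to 1.89 in females and 1.55 to 2.20 in males, with male 4 highest. Mbl2 over Mbl1 was 0.582 to 0.805 in females and 0.321 to 0.693 in males, with male 4 lowest.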
